A study of Mus musculus with 2 samples.

Results

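The genes described here are the bone morphogenetic protein (BMP) ligand genes Bmp2, Bmp4, Bmp5 and Bmp7, the antagonist genes Nog, Grem1, Chrd, Bmper and Fst, and Bambi, which encodes a decoy receptor. They were taken as every probe set that GEO's platform annotation assigns to one of these genes alone, which gave 15 of the 45037 non-control probe sets and all 10 genes. RNA came from the tissue between the digits of the hind limb of mouse embryos at stage E13.5, from the regions the labels call ID2 and ID3. One group was wild type of strain B6 and the other was homozygous for Hammer toe, a mutation that leaves the digits webbed. The series' design speaks of 3 sets of 5 littermates, 15 embryos for each genotype, and the values come from 1 array per genotype. Whether that array reads a pool of all sets is not given in the sources used here. The labels name B6 for the wild type only, and strain and mutation therefore cannot be told apart.

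BMPs are secreted dimers of the TGF-beta superfamily that signal through paired type I and type II receptor kinases to Smad proteins, which then act on target genes such as those of the Id and Msx families. In the limb, BMPs made by the interdigital mesenchyme and the apical ectodermal ridge are known for promoting the regression of the tissue between the digits, and in the digital rays for driving cartilage formation. Secreted antagonists bind the ligands outside the cell and keep them from their receptors, so the balance of both sides sets the level of signalling. The comparison asks which side of this balance differs between the genotypes.

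Bmp2 and Bmp4 read slightly lower on the Hammer toe array, the probe sets of Bmp5 and of Bmp7 differed in sign, and the antagonists went both ways. Bmper was 1.42-fold higher and Fst 1.37-fold or 1.57-fold higher, depending on the probe set. Nog was lower and Chrd higher, each with 1 array in the range of low values. Bambi and Grem1 were nearly the same on both arrays. With 1 array per genotype there was no replicate spread and no test, and every difference is one between 2 arrays. The tissue is a mixture, so fewer cells of a type and less RNA per cell cannot be told apart.

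Values are MAS5 intensities, the linear signal that Affymetrix software makes from the probes of a probe set, and both arrays were scaled to the same trimmed mean of 500.003. A floor of 78.1, the median of all non-control values, was set for low readings. Values under it were raised to it for the ratio only, so a ratio with 1 array under the floor is a bound. Of the 15 probe sets, 12 stood above the floor on both arrays and those of Nog and Chrd on 1 array, and 1 probe set of Bmp5 was under it on both, which left 14 measured. As a description of the scatter between the arrays, 95% of all measured probe sets had a log2 ratio within 0.67 of 0 where the brighter array read up to 200, within 0.54 from 200 to 1000 and within 0.32 above 1000. This scatter mixes technical noise with every difference between the samples. Between probe sets of one gene the log2 ratio had an SD of 0.21, over 5134 genes.

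**Figure D1:**
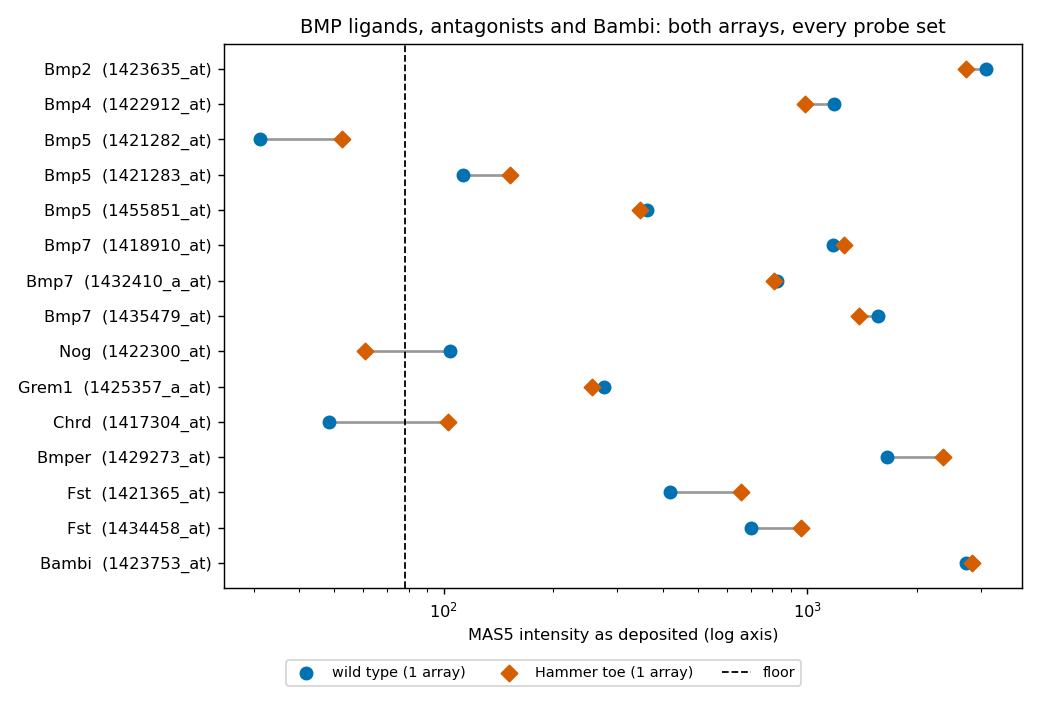
MAS5 intensity (log axis) of each of the 15 probe sets on the wild-type array (circles) and the Hammer toe array (diamonds), joined by a line, with the floor of 78.1 dashed. The lines of Bmper, both Fst probe sets and Chrd run to the right towards Hammer toe, that of Nog to the left, and those of Bmp2, Bmp4 and the other ligands are short, apart from the lines of 2 dim Bmp5 probe sets.

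Among the ligands, Bmp2 and Bmp4 are the closely related pair expressed in the interdigit and the ridge. Bmp2 read 3099.9 on the wild-type array and 2721 on the Hammer toe array, a log2 ratio of -0.19 for Hammer toe over wild type. Bmp4 read 1183 and 984, a log2 ratio of -0.27 or 1.20-fold lower. Both stayed inside the range of 0.32 for bright probe sets, and each gene has a single probe set on the array. Of the 7420 probe sets in that range, 3.76% were at least as far below wild type as Bmp4, and 8.85% as Bmp2.

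Bmp7, another BMP of the interdigit and ectoderm, was read by 3 probe sets. The brightest read 1564 on the wild-type array and 1386 on the Hammer toe array, a log2 ratio of -0.17. The next read 1178 and 1256, a log2 ratio of 0.09, and the dimmest 826 and 811, a log2 ratio of -0.03. The sign thus depended on the probe set, and all 3 were within the scatter of probe sets of like intensity.

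Bmp5, a ligand related to Bmp7 that is known from skeletal and ear development, also had 3 probe sets. The brightest read 362 and 347, a log2 ratio of -0.06. A dimmer one read 113 and 152, 1.34-fold higher in Hammer toe, a log2 ratio of 0.42, inside the range of 0.67 for dim probe sets. The last read 31.3 and 52.6, under the floor on both arrays, and gave no ratio. No direction could be given for Bmp5.

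Among the antagonists, Bmper (BMP-binding endothelial regulator, also known as crossveinless-2) encodes a secreted protein with repeats like those of chordin that can hinder or help BMP signalling. It read 1659.8 on the wild-type array and 2356 on the Hammer toe array, a log2 ratio of 0.51. It lay beyond the range of 0.32, and 0.647% of the 7420 probe sets at this brightness were at least as far above wild type. Bmper has 1 probe set, so no other reading of its transcript was at hand.

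Fst encodes follistatin, which binds activins most tightly and some BMPs as well. Its brighter probe set read 701 on the wild-type array and 962 on the Hammer toe array, a log2 ratio of 0.46. The other read 418 and 656, a log2 ratio of 0.65 or 1.57-fold. Both readings were higher in Hammer toe, and their log2 ratios differed by less than the SD between probe sets of a gene. The dimmer one passed the range of 0.54 for its intensity and the brighter one did not. Of the 9739 probe sets in the range, 1.60% were at least as far above wild type as the dimmer one and 4.47% as the brighter one.

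Nog encodes noggin, which binds BMPs directly and is known in the limb from cartilage condensations and joints. It read 104 on the wild-type array and 60.8 on the Hammer toe array, at least 1.33-fold lower (log2 ratio -0.42) with the floor, and 1.71-fold lower as deposited. Chrd encodes chordin, which also sequesters BMPs. It read 48.3 on the wild-type array and 102 on the Hammer toe array, at least 1.31-fold higher (log2 ratio 0.39) with the floor and 2.12-fold higher as deposited. Both bounds were inside the range of 0.67 for dim probe sets, and each gene rested on 1 probe set. Their as-deposited log2 ratios were -0.78 and 1.08, and each rests on a value under the floor. The range was computed from ratios with the floor, so ratios as deposited cannot be set against it. Whether these genes lie inside the scatter of like probe sets is not known.

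Grem1 encodes gremlin, the antagonist that links hedgehog signalling to the ridge in the early limb bud. Its probe set, of the _a_at type that reads several transcripts of a gene, gave 275 on the wild-type array and 256 on the Hammer toe array, a log2 ratio of -0.11. Bambi encodes a membrane protein that resembles a type I receptor without its kinase and is itself a BMP target. It read 2726 and 2828, a log2 ratio of 0.05. Both genes were within 1.08-fold of wild type.

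**Figure D2:**
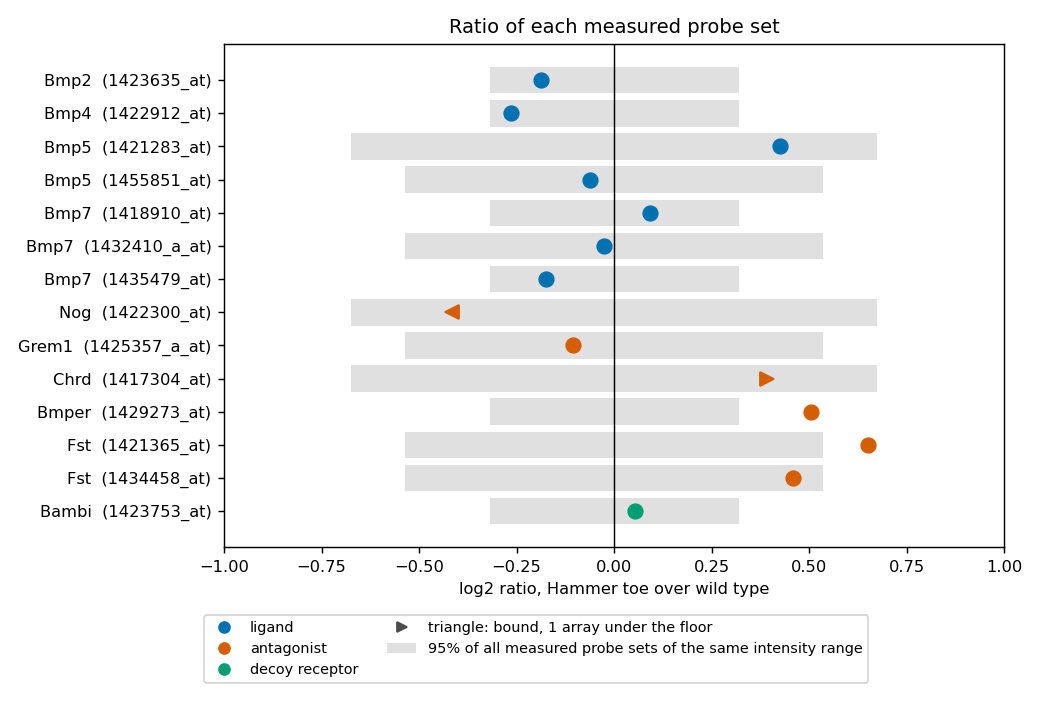
Log2 ratio, Hammer toe over wild type, of the 14 measured probe sets, coloured by role, with triangles for bounds. Grey bars span 95% of all measured probe sets in the same intensity range. Bmper at 0.51 and the dimmer Fst probe set at 0.65 lie outside their bars. The other ratios lie inside. Nog and Chrd are shown by their bounds, and where their ratios lie beyond the bound is not known.

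Read from the brightest probe set of each gene, the 4 ligands were below wild type, with a median log2 ratio of -0.18. Other probe sets of Bmp5 and Bmp7 were above it, and with all measured probe sets of a gene averaged Bmp5 stood at 0.18 and Bmp7 at -0.04. Of the 5 antagonists 3 were above and 2 below, with a median of 0.39. That median is the bound of Chrd, which had 1 array under the floor. Over all 10 genes 4 were above and 6 below, with a median of -0.08, beside 0.01 over the 11621 measured genes. The median of the 10 genes turned to 0.01 with probe sets averaged. None of the 10 reached 1.5-fold in either direction with bounds counted at their bound, beside 2.17% of all measured genes that were higher and 1.39% that were lower by that much. At a smaller size, a log2 ratio of 0.32 or more, 3 of 10 were higher (Bmper, Fst and Chrd), beside 8.47% of all genes, and 1 was lower (Nog), beside 6.33%. Of the 14 measured probe sets 1 was higher by 1.5-fold or more, that of Fst, beside 2.21% of all probe sets, and 0 were lower, beside 1.80%. These counts describe the 2 arrays and were not tested.

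RefSeq promoter sequences on GRCm38.p6 matched 5 of the 10 genes by symbol: Bmp4, Bmp5, Grem1, Chrd and Bmper. Shown here are the 250 bases before the start of all 5, so that a gene that read higher in Hammer toe (Bmper, and Chrd as a bound) can be set beside one that read slightly lower (Bmp4), one nearly the same on both arrays (Grem1) and one with no direction (Bmp5). The strand and place are chr9:23222826-23223075 (plus) for Bmper, chr16:20732877-20733126 (plus) for Chrd, chr14:46390670-46390919 (minus) for Bmp4, chr9:75775115-75775364 (plus) for Bmp5 and chr2:113758649-113758898 (minus) for Grem1, each written 5′ to 3′ along its gene. Capitals mark GGCGCC, a GC-rich site of BMP-activated Smads that reads the same on both strands, and CCACCCA or its complement TGGGTGG, the core of the site of Gli factors. The motifs can share end bases, and no match printed here does. They were chosen after the values were seen.
Bmper: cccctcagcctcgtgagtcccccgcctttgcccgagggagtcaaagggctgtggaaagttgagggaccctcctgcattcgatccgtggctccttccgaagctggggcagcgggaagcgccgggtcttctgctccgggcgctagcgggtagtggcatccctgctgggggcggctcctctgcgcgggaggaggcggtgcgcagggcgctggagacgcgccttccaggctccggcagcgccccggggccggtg
Chrd: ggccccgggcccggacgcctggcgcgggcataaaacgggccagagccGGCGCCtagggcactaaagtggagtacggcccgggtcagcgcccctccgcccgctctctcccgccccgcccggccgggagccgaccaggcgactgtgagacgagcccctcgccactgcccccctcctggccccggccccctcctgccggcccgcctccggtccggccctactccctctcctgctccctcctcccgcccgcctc
Bmp4: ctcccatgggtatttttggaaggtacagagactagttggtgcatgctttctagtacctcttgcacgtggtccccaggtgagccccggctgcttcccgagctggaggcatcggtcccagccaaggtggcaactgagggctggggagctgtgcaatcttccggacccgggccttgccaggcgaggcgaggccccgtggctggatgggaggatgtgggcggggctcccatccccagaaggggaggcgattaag
Bmp5: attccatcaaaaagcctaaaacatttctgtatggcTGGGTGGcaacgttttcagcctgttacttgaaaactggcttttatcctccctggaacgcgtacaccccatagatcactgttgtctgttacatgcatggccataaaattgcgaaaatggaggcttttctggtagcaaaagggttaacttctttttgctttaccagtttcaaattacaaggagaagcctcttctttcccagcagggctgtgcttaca
Grem1: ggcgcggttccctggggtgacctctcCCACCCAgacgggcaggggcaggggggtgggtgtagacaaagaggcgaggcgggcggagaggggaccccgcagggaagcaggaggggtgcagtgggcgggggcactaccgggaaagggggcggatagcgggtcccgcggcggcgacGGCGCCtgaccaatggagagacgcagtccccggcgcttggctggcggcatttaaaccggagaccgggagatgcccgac

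The Chrd window held 1 GGCGCC, which began 203 bases before the start. The Grem1 window held 1 GGCGCC, 78 bases before the start, and 1 CCACCCA, 224 bases before it. The Bmp5 window held 1 TGGGTGG, which began 215 bases before the start. The windows of Bmper and Bmp4 held neither motif. Over all 32851 promoter windows of the same length, 9.59% held GGCGCC and 8.11% held the Gli core in either orientation. The windows of Chrd, Grem1 and Bmper were 71.6% to 78.0% G and C, that of Bmp4 was 63.2% and that of Bmp5 42.8%, beside a median of 52.4% over all windows. These are matches of letters, and binding was not measured.

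Among the other genes of the BMP pathway, none of the 21 measured receptors, Smads and targets reached 1.5-fold on its brightest probe set. Over all the pathway lists, 38 of 50 genes were measured, 14 of them higher and 24 lower, with a median log2 ratio of -0.04. There 1 gene was higher by 1.5-fold or more and 2 were lower, beside the shares of 2.17% and 1.39% of all genes given above.

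In the list of other ligands, 4 of 11 genes were measured, 1 higher and 3 lower. The 3 lower include Bmp1, at a log2 ratio of -0.07, which despite its name encodes a protease and not a ligand. Inhba, which encodes a subunit of activin A, the ligand follistatin is best known for binding, read 230 on the wild-type array and 136 on the Hammer toe array, 1.69-fold lower. Its log2 ratio of -0.76 lay beyond the range of 0.54 for its intensity, on a single measured probe set. The transcripts of follistatin and of this activin subunit thus differed in opposite directions. Gdf5, a BMP-type ligand of the joints, had a log2 ratio of -0.09. Gdf2, a ligand of the circulation, read 46.9 and 111, at least 1.43-fold higher. Its bound, a log2 ratio of 0.51, was inside the range of 0.67 for dim probe sets.

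Of 17 other secreted or surface modulators, 13 were measured, 9 of them higher and 4 lower, with a median log2 ratio of 0.09. Rgma, a surface co-receptor of BMPs, read 158 on the wild-type array and 272 on the Hammer toe array, 1.72-fold higher and also beyond the range for its intensity. Chrdl2, a relative of chordin, read 120 and 68.9, at least 1.54-fold lower. Its bound, a log2 ratio of -0.62, was inside the range of 0.67 for dim probe sets. Sostdc1, a secreted antagonist of BMP and Wnt signals that is known from epithelia, read 2918 and 4069.8, 1.39-fold higher, and its second probe set 1317 and 1889.9. Both readings of Sostdc1 were beyond the range of 0.32 for bright probe sets, as was that of Bmper. Sostdc1 and its second probe set were picked out after their values were seen.

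The 7 receptors had a median log2 ratio of -0.06, with 1 higher and 6 lower. The largest differences on the brightest probe sets were those of Acvr2a at 0.19, Acvr1 at -0.15 and Acvrl1 at -0.14, the last a bound. A dimmer probe set of Acvr1, a type I receptor, read 295 and 189, a log2 ratio of -0.64. Bmpr1a and Bmpr2, a type I and the main type II BMP receptor, stood at -0.06 and -0.05.

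The 5 measured Smads had a median of -0.01, with Smad5 at -0.12, Smad7 at 0.08 and Smad4 at -0.04. Smad1 and Smad5 carry the BMP signal, Smad4 is their common partner and Smad7 is an inhibitor. The second probe set of Smad7, of the _x_at type that can bind related transcripts, stood at -1.71.

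The 9 target genes had a median of -0.05, with 2 higher and 7 lower. Id4 had a log2 ratio of 0.35 on its brightest probe set and 0.03 and -0.27 on the others. Hey1 stood at -0.26, Msx1 at -0.21 and Id2 at -0.21, where Msx1 stood at 0.04 on its dimmer probe set. Id1, Id3 and Msx2, transcriptional targets of BMP signalling in limb mesenchyme, were within 1.04-fold of wild type on their brightest probe sets.

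**Figure D3:**
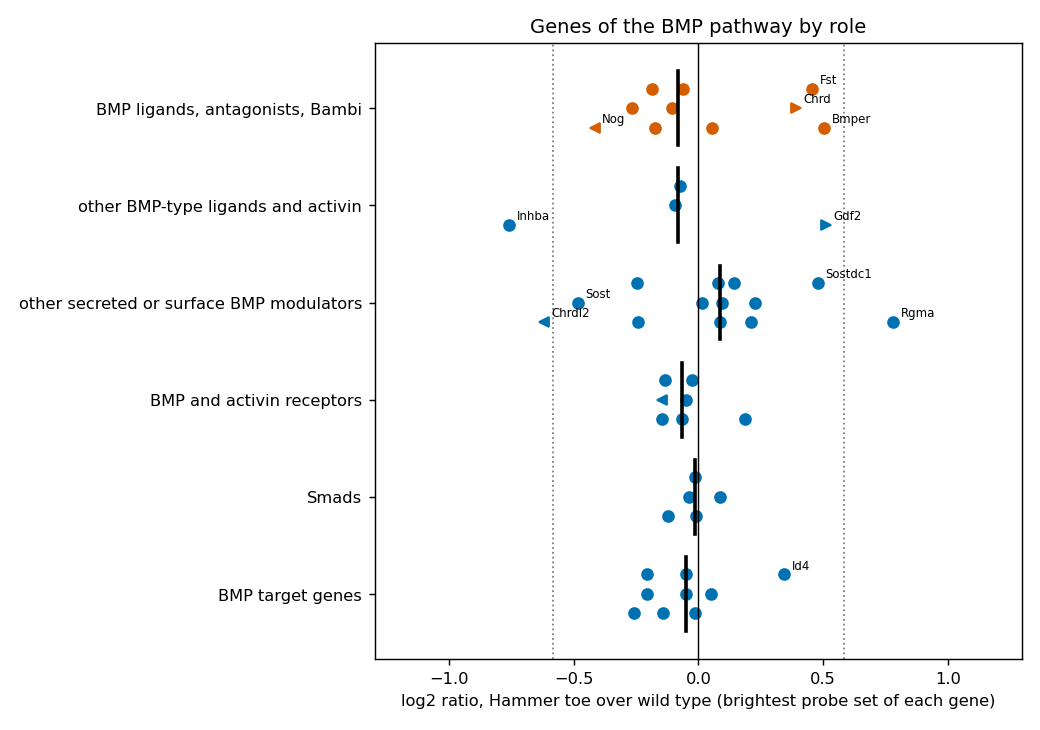
Log2 ratio, Hammer toe over wild type, of each measured gene on its brightest probe set, by role in the BMP pathway. Black bars are medians, triangles are bounds, dotted lines mark 1.5-fold, and genes at a log2 ratio of 0.32 or more in size are named. Inhba, Rgma and Chrdl2 lie past 1.5-fold, and the receptors, Smads and most target genes sit near 0.

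The tissue label was checked against markers. All 7 markers of limb and interdigital mesenchyme were measured, with Hoxd13 at 17291 on the wild-type array and 15779 on the Hammer toe array and Aldh1a2, the retinoic acid enzyme of the interdigit, at 13129 and 11474. Of these markers 1 was higher and 6 were lower, with a median log2 ratio of -0.13, and their summed intensity was 62074 and 56374. The largest log2 ratios on the brightest probe sets were those of Hoxa13 at -0.41 and Lhx9 at -0.29. Dimmer probe sets of Lhx9 stood at -0.41, -0.47 and -0.61. The part of mesenchyme in the values of the BMP genes was not tested.

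Other cell types' markers also read differently on the 2 arrays. Of 10 cartilage markers 9 were lower and 1 higher, 6 of them lower by 1.5-fold or more, and their summed intensity was 15653 on the wild-type array and 10021 on the Hammer toe array. Col9a1 read 7936 and 5106, Sox9 1807 and 1161, Sox5 387 and 199, and Col9a3 1273 and 641. Nog, known from cartilage condensations, was lower on the same array. The part of cartilage cells in the value of Nog was not tested.

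Surface ectoderm markers were higher in 8 of 10, and their sum was 10414 on the wild-type array and 13245 on the Hammer toe array. Perp read 1927 and 2699 and Epcam 1517 and 2254. Krt14 read 1805 and 1743 on its brightest probe set, and 1038 and 1369 on its other measured probe set. Esrp1 had a log2 ratio of 0.55. The second probe set of Epcam read 259 and 159, in the opposite direction. Of the 4 apical ridge markers measured 1 was higher and 3 were lower. Their sums were nearly equal, 1912 and 1928, and came mostly from Dlx5, which read 1164 and 1126. Fgf8 had a log2 ratio of -0.30, Sp8 of 0.43 and Dlx5 of -0.05, and En1 was under the floor on both arrays. The part of ectoderm in the values of Bmper, Fst and Sostdc1 was not tested.

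Muscle markers were dim and 4 of 6 were higher, with a sum of 874 on the wild-type array and 1390.5 on the Hammer toe array. Actc1 read 419 and 820, Myh3 84.2 and 179, and Myog 116 and 158. Myod1, which defines the lineage, read 99.0 and 84.2, Des 95.9 and 28.4, and Tnnt2 was under the floor on both arrays. Macrophage markers were higher in 7 of 8, with sums of 2694 and 3469.9, Csf1r at 1028 and 1218, C1qb at 367 and 517, Mrc1 at 333 and 503 and Aif1 at 82.7 and 143.

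Endothelial markers, which bear on the cells Bmper is named for, had sums of 3706 and 3907, with 2 of 6 higher, Esam at a log2 ratio of 0.55 and Pecam1 at -0.28. Cdh5, a defining endothelial gene, stood at 0.02. Erythroid markers were lower in all 6 measured on their brightest probe sets, with sums of 57920.0 and 49666. Hbb-y read 34789.5 and 33861, and Hbb-bh1 4846 and 2737. The log2 ratio of Hbb-y was -0.04 on that probe set, and -0.02 and 0.19 on its others. Hba-x had a log2 ratio of -0.48 and Ermap a bound of -0.61. The part of muscle, macrophages, vessels and blood in the values of the BMP genes was not tested.

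**Figure D4:**
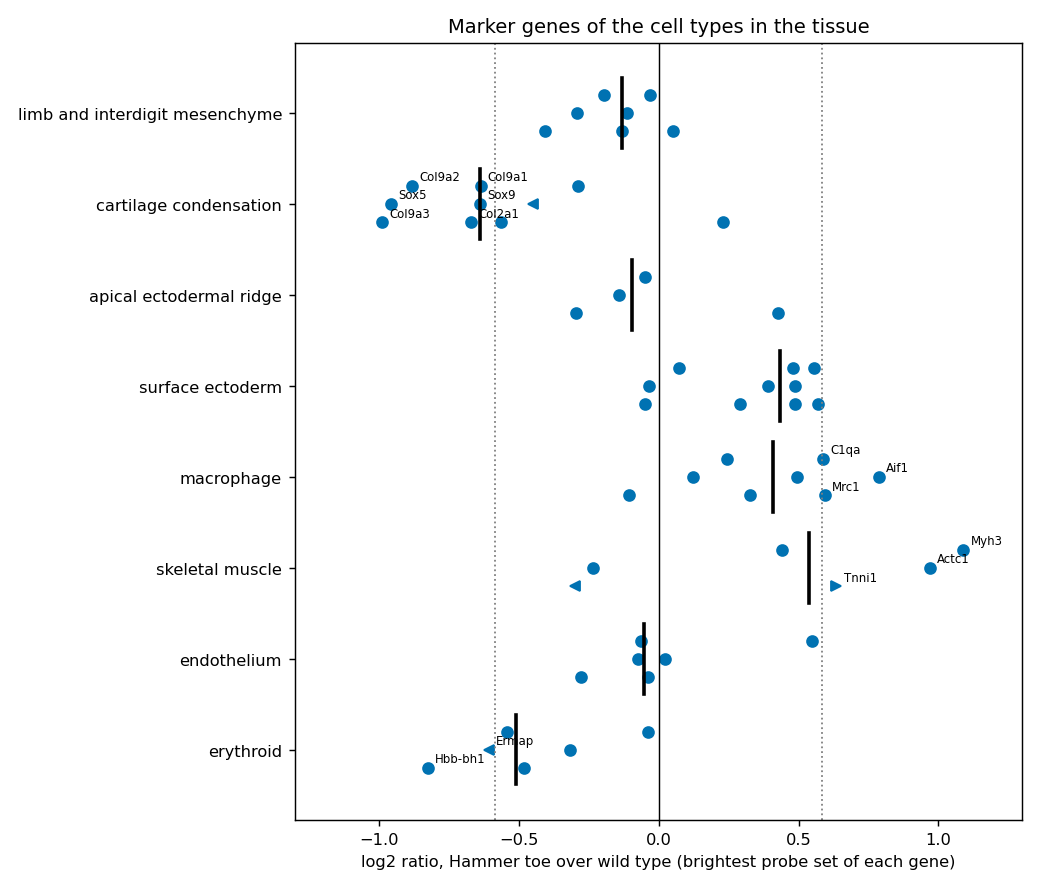
Log2 ratio, Hammer toe over wild type, of marker genes on their brightest probe set, by cell type. Black bars are medians, triangles are bounds, dotted lines mark 1.5-fold, and genes past 1.5-fold are named. Cartilage and erythroid medians lie below 0, and those of surface ectoderm, macrophages and muscle above 0. The median is -0.13 for limb and interdigital mesenchyme, -0.10 for the apical ridge and -0.05 for endothelium.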

How the data were processed

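The authors deposited 1 linear intensity per probe set and array. Per the submitters' processing notes, they used MAS5 and Affymetrix Expression Console. Versions, settings and detection calls are not given in the sources used here. Per the labels' protocols, biotinylated cRNA was made from 250 ng of total RNA. MAS5 scales each array to a common mean, so a shift shared by most transcripts is lost.

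GEO's platform annotation, with symbols updated by gene ID through RefSeq's GRCm38.p6 table, gave 1 gene to 34945 of 45037 non-control probe sets, several to 932 and none to 9160. For 204 the annotation's symbol was kept. Ratios, counts and medians were computed with Python 3.11.15, numpy 2.4.6 and pandas 2.3.3. A gene was measured when its brightest probe set, by the mean over both arrays, exceeded the floor on at least 1 array. Each gene was read from that probe set. Calls were made by size alone, at 1.5-fold, without p-values. The number of arrays limits the precision. All probe sets of the 10 genes are given. Of each other pathway list the rule named members at 1.5-fold or more or the 3 largest differences, and of each marker list the 2 brightest and the 2 with the largest differences. Others were named after their values were seen. The genes and lists were chosen with earlier results of these data known. Dlx5, Dlx6 and Msx2 stand in a pathway list and a marker list. No genes alike in pattern were named, since 2 arrays give only 1 ratio. The calculation was tested on simulated data. The alternatives were 3 other scalings, other floors, a pseudocount, other choices of probe set and other sizes of change.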

Additional observations from a re-analysis of the deposited data

How the results depend on the processing

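Median centring, quantile normalization and a lowess correction (span 0.3) left 0 of the 10 genes higher and 0 lower by 1.5-fold, and moved the median of all genes by under 0.01 on the log2 scale. With no floor, or with the floor at the 25th percentile (19.8), 1 gene was higher (Chrd, log2 ratio 1.08) and 1 lower (Nog, -0.78). Both counts rest on a value under the floor used here, and depth of signal limits these genes. With a lower threshold, a log2 ratio of 0.32, 3 genes were higher and 1 lower, and at 2-fold 0 and 0. The floor at the 75th percentile (498) left 6 genes measured and brought the dimmer Fst probe set to a bound of 0.40. Leaving out probe sets of the _x_at, _s_at and _a_at types removed Grem1, with counts of 0 and 0. The median of the genes was -0.09 to -0.06 under the alternatives, except 0.01 with the mean over probe sets, where the readings of Bmp5 and Bmp7 differ in sign. Over 7 alternatives and 14 probe sets, 93 ratios were computed, 0 changed sign and 88 moved by less than 0.21, the SD between probe sets of a gene. Changing or removing the floor, or adding a pseudocount, keeps the order of the 2 values. Only the 3 other scalings could therefore have changed a sign. No paired analysis was possible because each genotype has 1 array.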
